A study of Mus musculus with 10 samples.

Results

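The mitochondrial ribosomal protein genes were followed in livers of wild-type (WT) and Ndrg3 LKO mice by RNA sequencing. They were chosen by symbol alone, as the genes whose symbol is Mrpl or Mrps followed by a number and at most 1 letter, and 77 of the 24052 symbols in the count table met this rule. The mice, labelled C57BL/6 and from a line that the methods describe as backcrossed to C57BL/6N, were fed ad libitum. Each of the 10 livers gave 1 library, 5 WT (WT1 to WT5) and 5 Ndrg3 LKO (LKO1 to LKO5). The legends of the study give 5 WT and 4 Ndrg3 LKO mice for its sequencing results, and which 4 is not stated. In the Ndrg3 LKO mice exon 4 of *Ndrg3* was flanked by loxP sites and removed by a Cre recombinase under the albumin promoter, which acts mainly in hepatocytes, and which cells of these livers kept the gene was not measured here. The controls were WT littermates, and the age is given differently in the methods (8 to 10 weeks) and in a legend of the study (10 to 12 weeks). The methods give male mice as the default for all experiments.

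The mitochondrial ribosome makes the few proteins that mitochondrial DNA encodes, all of them core parts of the respiratory chain and the ATP synthase. It consists of a large subunit, which joins the amino acids, and a small subunit, which reads the mRNA. Its RNAs come from mitochondrial DNA, but each of its proteins is encoded in the nucleus, made in the cytosol and imported, and many have no bacterial relative and were gained by mitochondria. Hepatocytes are rich in mitochondria, and a shortage of mitochondrial ribosomes limits oxidative phosphorylation.

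The libraries held 20872262 to 24747870 counts in WT and 23474693 to 30450057 in Ndrg3 LKO livers, so that 3 counts were worth 0.0727 to 0.179 CPM, here counts scaled to the library total after TMM normalization. *Ndrg3* itself was at 18.5 ± 2.2 CPM in WT (SD, n = 5) and 8.06 ± 0.76 in Ndrg3 LKO livers (SD, n = 5), lower in every Ndrg3 LKO liver than in any WT liver (exact permutation test over 252 splits, 2-sided p = 0.00794, the smallest this design allows). LKO5 stood apart from the other Ndrg3 LKO livers. On the first principal component, which held 68.7% of the variance, it lay at 14.1, the other Ndrg3 LKO livers between 51.1 and 56.6 and the WT livers between -49.9 and -43.1. The summed level of 8 hepatocyte markers was 140500 to 185500 CPM in WT livers, 36600 to 44640 CPM in LKO1 to LKO4 and 149200 CPM in LKO5, and 5 of the 7 hepatocyte markers tested were downregulated. All 7 macrophage markers tested, 5 of 6 endothelial, 5 of 6 stellate and all 4 cycling markers were upregulated, and the macrophage sum was 79.3 to 202.3 CPM in WT and 181.7 to 563.5 CPM in Ndrg3 LKO livers. Counts of genes are therefore given with and without LKO5 where they differ, and the part of cell composition in them was not tested. In bulk liver, fewer cells of a type and less RNA per cell cannot be told apart.

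All 77 mitochondrial ribosomal protein genes passed the filter for expressed genes (at least 1 CPM in at least 5 livers), with 113 to 10482 counts per liver. In Ndrg3 LKO livers, 27 of them (35.1%) were significantly upregulated, none was downregulated, and 50 did not pass the test (edgeR quasi-likelihood test, Benjamini-Hochberg adjusted p under 0.05 over 11208 genes). Over all genes tested, 25.6% were upregulated and 23% downregulated. The median log2 fold change (Ndrg3 LKO over WT) of the 77 genes was 0.33, with quartiles of 0.07 and 0.47 and a range from -0.45 to 1.30, against a median of 0.03 over all genes, and it was above 0 in 60 of them. In 12 genes every Ndrg3 LKO liver was above every WT liver, and in none was every one below. This share of 15.6% was the same as that of all genes with Ndrg3 LKO above (15.6%, and 15.9% with Ndrg3 LKO below), so complete separation was no more frequent here than elsewhere. Without LKO5 the Ndrg3 LKO livers were above in 13 genes and below in 1, beside 21.6% and 22.6% of all genes. The changes were small, as only *Mrpl50* exceeded a log2 fold change of 1.

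**Figure D1:**
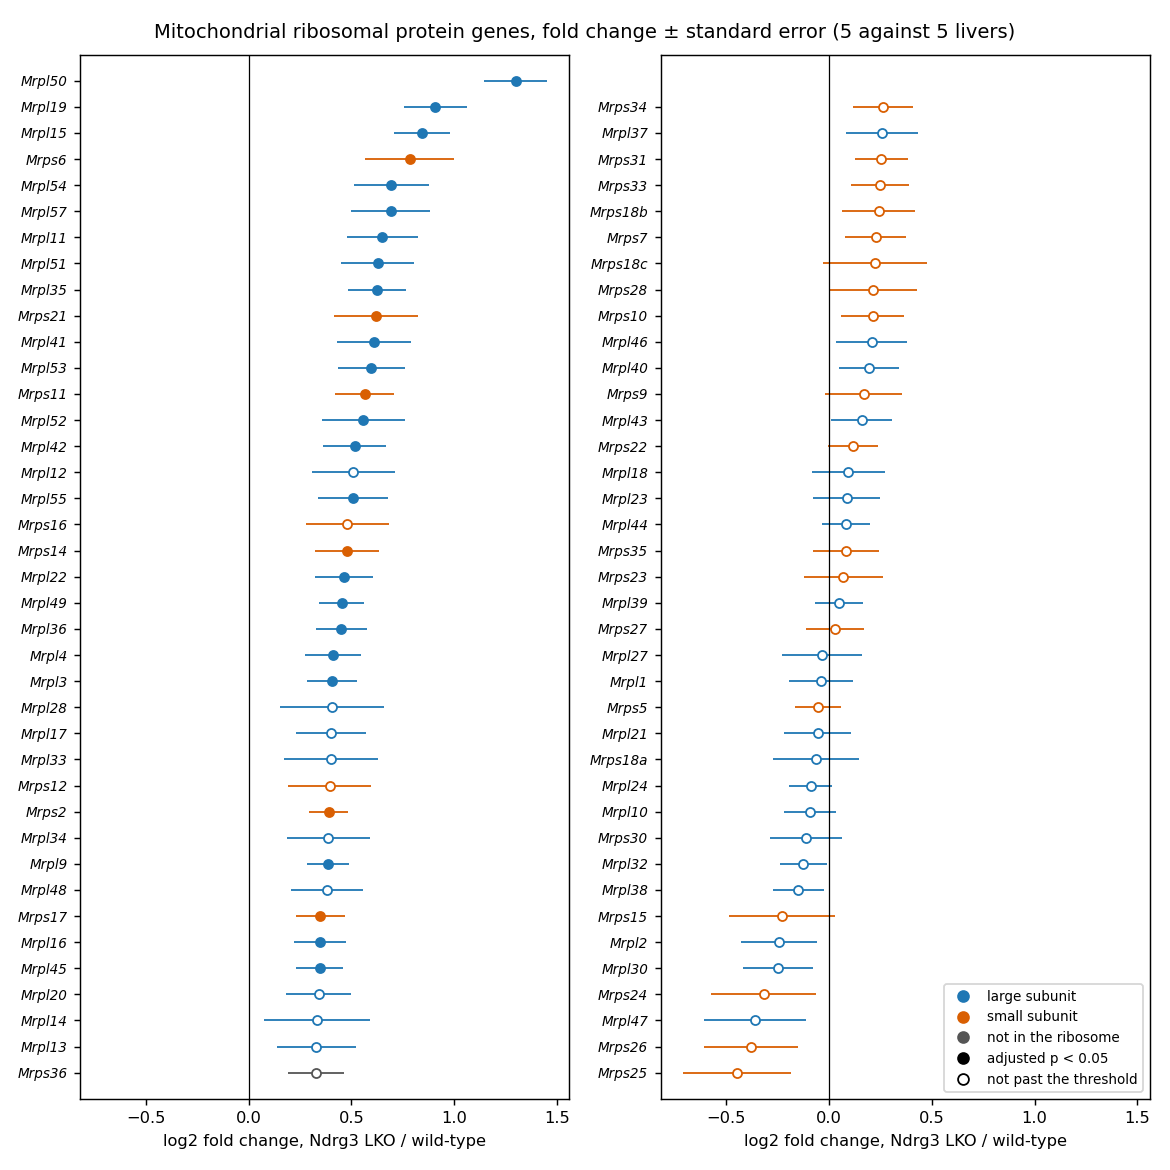
Log2 fold change of each mitochondrial ribosomal protein gene, Ndrg3 LKO over wild-type, with its standard error from edgeR (5 against 5 livers), ordered from high to low. Filled points are the 27 genes with an adjusted p under 0.05, all on the positive side, from *Mrpl50* at 1.30 downward.

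The fold changes depend on the scale. They are relative to TMM scaling, which sets the bulk of genes near 0, and with library totals as the scale the median of all genes was itself 0.56 and that of the mitochondrial ribosomal protein genes 0.80. On that scale 69 of 77 genes were upregulated and none was downregulated, beside 51.9% up and 9.01% down among all genes. All 17 genes below 0 with TMM scaling, none of them called, were above 0 with library totals. Without LKO5, 23 genes were upregulated, or 29.9% beside 28.4% of all genes, and 4 were downregulated, or 5.19% beside 27.2% of all genes. These 23 were all among the 27, and the median fell to 0.23. Without LKO5, the upregulated share was thus close to that of all genes, and the downregulated share was below it. Across 21 fits that changed the scale, the tool, the filter or the livers, 16 genes were upregulated in every fit that included them, namely *Mrpl11*, *Mrpl15*, *Mrpl19*, *Mrpl35*, *Mrpl36*, *Mrpl41*, *Mrpl42*, *Mrpl49*, *Mrpl50*, *Mrpl51*, *Mrpl53*, *Mrpl54*, *Mrpl57*, *Mrps2*, *Mrps6* and *Mrps11*. *Mrpl57*, which was not found in the annotation, was in 19 of these fits, without the corrections for length and GC content. The share of all genes upregulated in every fit was not counted, so these 16 genes cannot be set beside it.

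Promoter sequences from RefSeq (GRCm38.p6, 250 bases before to 50 after the start) were matched by symbol to 68 of the 77 genes, in 74 promoters, and searched on both strands for short motifs of factors known for nuclear genes of mitochondrial proteins. The ETS motif CCGGAAG, the core that GABP and related factors bind, was found in 33.8% of the 74 promoters against 8.86% of all 32851. The YY1 motif AAGATGGC was found in 16.2% against 2.75%. The NRF1 motif GCGCATGC was found in 10.8% against 2.71%, and the E-box CACGTG in 9.46% against 7.15%. Counted per gene among the 8562 tested genes with a promoter, the ETS motif was found in 25 of the 68 genes (36.8%) against 20.7%, the YY1 motif in 12 (17.6%) against 5.48%, the NRF1 motif in 8 (11.8%) against 6.25%, and the E-box in 5 (7.35%) against 12%. Of the 25 genes with the ETS motif 7 were upregulated, and of the 43 without it 16 were. For the YY1 motif the numbers were 5 of 12 with it and 18 of 56 without. For the NRF1 motif they were 2 of 8 and 21 of 60, and for the E-box 1 of 5 and 22 of 63. Over all genes tested, with or without a motif, 25.6% were upregulated. A match is a description of letters and not a bound site. The following 4 promoters belong to genes whose groups did not overlap and are shown as examples of the YY1, NRF1 and ETS matches and of a promoter without any. Each runs from 120 bases before to the 30th base from the start, on the strand of the gene, with the motif in capitals. *Mrpl50* (minus strand, chr4:49521054-49521203) holds none of the 4 motifs, *Mrps11* (plus strand, chr7:78783011-78783160) the YY1 motif on the opposite strand, *Mrpl9* (plus strand, chr3:94443216-94443365) the NRF1 motif on each strand with an overlap, and *Mrpl3* (plus strand, chr9:105053148-105053297) the ETS motif on the strand of the gene.
Mrpl50: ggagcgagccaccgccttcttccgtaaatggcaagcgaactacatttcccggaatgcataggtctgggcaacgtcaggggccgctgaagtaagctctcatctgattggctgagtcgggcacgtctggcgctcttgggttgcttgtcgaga
Mrps11: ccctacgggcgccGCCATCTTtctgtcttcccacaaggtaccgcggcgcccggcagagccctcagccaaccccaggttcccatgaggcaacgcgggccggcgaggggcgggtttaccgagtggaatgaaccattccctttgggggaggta
Mrpl9: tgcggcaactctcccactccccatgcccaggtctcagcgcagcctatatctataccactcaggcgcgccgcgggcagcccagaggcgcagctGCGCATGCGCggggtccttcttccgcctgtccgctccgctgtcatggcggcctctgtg
Mrpl3: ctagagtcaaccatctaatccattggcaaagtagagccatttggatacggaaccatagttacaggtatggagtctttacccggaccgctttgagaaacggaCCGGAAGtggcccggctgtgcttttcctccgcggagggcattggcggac

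The large subunit contributed 21 of the 27 upregulated genes, out of 50 tested, or 42% beside the 25.6% of all genes (median log2 fold change 0.36). It held 10 of the 12 genes without overlap, and over all genes 15.6% had every Ndrg3 LKO liver above. Without LKO5 it had 19 upregulated genes and 1 downregulated gene, beside 28.4% and 27.2% of all genes. *Mrpl50*, a protein with no bacterial relative, lies on the minus strand of chromosome 4 (mm9, 49525468 to 49533965) and changed the most. It was at 42.5, 43.5, 46.3, 44.6 and 43.7 CPM in WT1 to WT5 and at 112.6, 133.5, 106.7, 118.4 and 71.2 CPM in LKO1 to LKO5. The WT livers were nearly level, and LKO5 lay between them and the other Ndrg3 LKO livers. Its log2 fold change was 1.30 ± 0.15 (SE, edgeR adjusted p = 6.99e-05), and 1.41 ± 0.11 without LKO5 (SE, edgeR adjusted p = 1.11e-06).

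*Mrpl19*, the homologue of a bacterial protein at the interface of the subunits, is on the minus strand of chromosome 6 (81907845 to 81915952). Its levels were 10.4, 12.5, 14.1, 12.7 and 14.8 CPM in WT and 24.8, 25.3, 26.5, 27.3 and 17.0 CPM in Ndrg3 LKO livers, again with LKO5 between the groups. The log2 fold change was 0.91 ± 0.15 (SE, edgeR adjusted p = 6.75e-04). An exon of *Mrpl19* overlaps the annotated gene AW146020, and the strand setting of the counting is not stated, so reads of the pair cannot be told apart. *Mrpl15*, another homologue of a bacterial protein (chromosome 1, minus strand, 4763287 to 4775820), was at 72.6, 78.4, 92.0, 64.5 and 98.3 CPM in WT and at 164.4, 135.3, 142.9, 150.7 and 135.6 CPM in Ndrg3 LKO livers. Here LKO5 lay with the other Ndrg3 LKO livers, and the log2 fold change of 0.84 ± 0.14 (SE, edgeR adjusted p = 5.26e-04) was 0.86 without it. *Mrpl54*, which is specific to mitochondria (chromosome 10, minus strand, 80727458 to 80729679), was at 29.9, 30.9, 35.5, 23.3 and 37.6 CPM in WT and at 58.6, 38.4, 38.0, 60.5 and 59.1 CPM in Ndrg3 LKO livers. LKO2 and LKO3 were only just above the highest WT liver, and the log2 fold change was 0.70 ± 0.18 (SE, edgeR adjusted p = 0.00779).

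**Figure D2:**
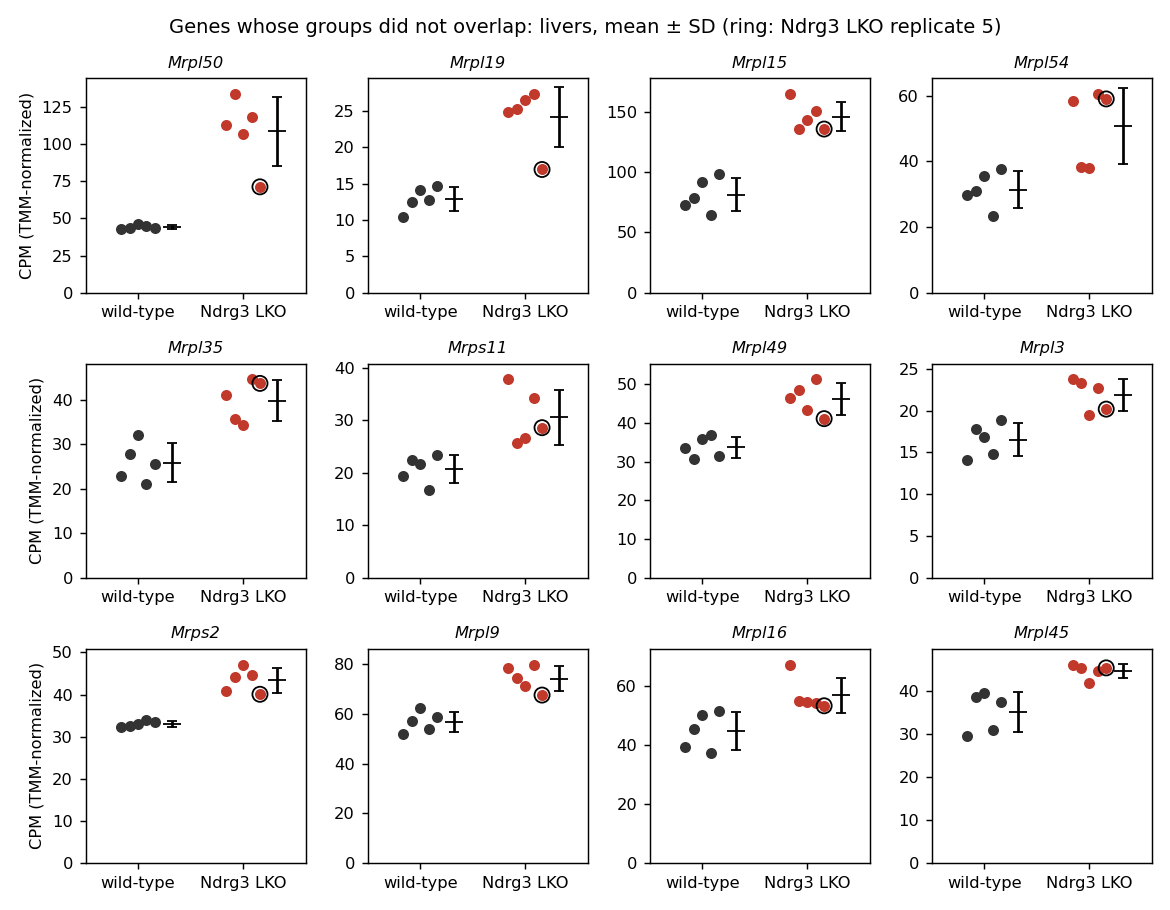
CPM of the 12 mitochondrial ribosomal protein genes in which every Ndrg3 LKO liver was above every wild-type liver, with each liver as a point and the mean ± SD of each group (n = 5) beside it, on an axis from 0. LKO5, ringed, was the lowest Ndrg3 LKO liver for *Mrpl50* (71.2 CPM) and *Mrpl19* (17.0 CPM) but not for *Mrpl54* (59.1 CPM).

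Among the other large subunit genes without overlap, *Mrpl35* rose from 25.8 ± 4.4 to 39.8 ± 4.7 CPM and *Mrpl49* from 33.7 ± 2.7 to 46.1 ± 4.1 CPM (SD, n = 5 in each group). *Mrpl3* and *Mrpl16* are homologues of bacterial proteins close to the peptidyl transferase centre, where the peptide bond is made. *Mrpl3* was at 14.1 to 18.9 CPM in WT and 19.4 to 23.7 CPM in Ndrg3 LKO livers (log2 fold change 0.41 ± 0.12, SE, edgeR adjusted p = 0.0162), a call that was lost when WT1 was left out. *Mrpl16* was at 37.1 to 51.5 CPM in WT and 53.2 to 67.2 CPM in Ndrg3 LKO livers (0.35 ± 0.13, SE, edgeR adjusted p = 0.0397), a call that was lost when WT1, WT2, WT4, LKO1, LKO3 or LKO4 was left out. Of 2 further proteins of this region, *Mrpl2* was at 53.3 ± 5.5 CPM in WT and 45.0 ± 12.7 CPM in Ndrg3 LKO livers and *Mrpl27* at 58.8 ± 8.4 and 57.5 ± 16.8 CPM (SD, n = 5 in each group), and neither passed the test (log2 fold changes of -0.25 and -0.03, edgeR adjusted p = 0.289 and 0.899, and 0.24 and 0.45 with library totals as the scale, where *Mrpl27* was called).

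*Mrpl9* was at 52.1 to 62.3 CPM in WT and at 67.6 to 79.9 CPM in Ndrg3 LKO livers (log2 fold change 0.39 ± 0.10, SE, edgeR adjusted p = 0.0087). Its call was lost when the replicate number of the livers entered the fit as a block (edgeR adjusted p = 0.058). *Mrpl45*, which holds the ribosome at the inner membrane, where its products are inserted, was at 29.4 to 39.5 CPM in WT and 41.9 to 46.1 CPM in Ndrg3 LKO livers. The Ndrg3 LKO livers were thus closer to each other than the WT livers were, and the log2 fold change was 0.35 ± 0.11 (SE, edgeR adjusted p = 0.0246), a call lost when WT1, WT4 or LKO1 was left out.

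The stalk of the large subunit, which recruits the translation GTPases, gave unequal values for its proteins. *Mrpl12*, which also binds the mitochondrial RNA polymerase, was the most abundant of the 77 genes by CPM, at 147.2, 171.4, 207.7, 142.2 and 231.2 CPM in WT and 301.3, 185.9, 195.5, 274.8 and 323.9 CPM in Ndrg3 LKO livers. LKO2 and LKO3 were within the range of the WT livers, and the gene did not pass the test (log2 fold change 0.51 ± 0.20, SE, edgeR adjusted p = 0.0537). *Mrpl11*, at the base of the stalk, rose from 39.3 ± 7.5 to 61.7 ± 12.2 CPM (SD, n = 5 in each group, log2 fold change 0.65, edgeR adjusted p = 0.0084), whereas *Mrpl10*, which anchors the stalk, was at 55.2 ± 5.3 and 51.8 ± 7.6 CPM (SD, n = 5 in each group, edgeR adjusted p = 0.568). Per kilobase of exon, *Mrpl52* had the highest level in WT livers of the large subunit (118.4 CPM per kb over 412 bp), followed by *Mrpl12* (117.4 CPM per kb), and *Mrpl19* the lowest of all (2.37 CPM per kb over 5450 bp). *Mrpl52* rose from 48.8 ± 11.3 to 71.9 ± 17.2 CPM (SD, n = 5 in each group, edgeR adjusted p = 0.0363), and *Mrpl55* from 25.1 ± 3.5 to 35.7 ± 8.2 CPM (SD, n = 5 in each group, edgeR adjusted p = 0.0273). Both calls were lost when WT1, WT2, WT4, LKO1, LKO4 or LKO5 was left out.

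In the small subunit 6 of 26 genes were upregulated (*Mrps2*, *Mrps6*, *Mrps11*, *Mrps14*, *Mrps17* and *Mrps21*), or 23.1% beside the 25.6% of all genes, with a median log2 fold change over the 26 of 0.23. This number was 3 without WT1, WT4, LKO1 or LKO4, 4 without WT2 or LKO5, and 9 without LKO2, and without LKO5 another 3 were downregulated. Whether the subunits differ was not tested, as the genes of a subunit are not replicates. *Mrps6*, *Mrps11* and *Mrps21* belong to the platform, the part of the small subunit that the mRNA leaves by. *Mrps18c* and *Mrps15* of the same region did not pass the test (log2 fold changes of 0.23 and -0.23, edgeR adjusted p = 0.482 and 0.488, and 0.70 and 0.23 with library totals as the scale, where *Mrps18c* was called). *Mrps6* (chromosome 16, plus strand, 92058515 to 92112472) was at 6.34, 8.30, 10.8, 6.71 and 9.70 CPM in WT and 17.7, 9.48, 11.7, 15.0 and 18.2 CPM in Ndrg3 LKO livers. Only LKO2 was inside the range of the WT livers, and the log2 fold change was 0.78 ± 0.21 (SE, edgeR adjusted p = 0.0103). Annotated exons of *Mrps6* overlap those of *Slc5a3*, and reads of the pair may not be told apart.

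*Mrps11* (chromosome 7, plus strand, 85928005 to 85937875) was at 19.4, 22.3, 21.7, 16.6 and 23.3 CPM in WT and 37.7, 25.7, 26.6, 34.2 and 28.6 CPM in Ndrg3 LKO livers, without overlap. The log2 fold change was 0.57 ± 0.14 (SE, edgeR adjusted p = 0.0071). Its annotated exons overlap those of *Mrpl46*, a large subunit gene, which was at 25.2 ± 3.8 and 29.2 ± 6.6 CPM (SD, n = 5 in each group, edgeR adjusted p = 0.338). *Mrps21* was at 45.6 to 63.7 CPM in WT and at 102.9, 54.6, 61.3, 91.0 and 114.6 CPM in LKO1 to LKO5, so that LKO2 and LKO3 were level with the WT livers and the other 3 were above them. Its call (log2 fold change 0.62 ± 0.21, SE, edgeR adjusted p = 0.0262) was lost when WT1, WT4, LKO1, LKO4 or LKO5 was left out.

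*Mrps14*, a protein of the head of the small subunit, rose from 46.4 ± 7.3 to 64.7 ± 11.5 CPM (SD, n = 5 in each group, edgeR adjusted p = 0.023), and this call was lost when WT1, WT2, WT4, LKO1 or LKO4 was left out. *Mrps2* had the smallest standard error of the 77 genes and was at 32.2, 32.6, 33.0, 34.0 and 33.5 CPM in WT and 40.8, 44.2, 47.1, 44.6 and 40.1 CPM in Ndrg3 LKO livers. Its log2 fold change was 0.39 ± 0.09 (SE, edgeR adjusted p = 0.00546), and 0.41 without LKO5. *Mrps16*, the small subunit gene with the highest level per kilobase in WT livers (61.4 CPM per kb over 566 bp), was at 25.8 to 42.4 CPM in WT and 31.04 to 61.1 CPM in Ndrg3 LKO livers and did not pass the test (edgeR adjusted p = 0.0665).

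Several symbols do not say where the protein sits. The genes *Mrps18a*, *Mrps18b* and *Mrps18c* are relatives of a single bacterial platform protein, of which *Mrps18c* holds the place in the platform, *Mrps18b* another place in the small subunit and *Mrps18a* a place in the large subunit. None of them passed the test. *Mrps18c* was at 22.4 to 42.0 CPM in WT and 23.8 to 57.7 CPM in Ndrg3 LKO livers (log2 fold change 0.23 ± 0.25, SE), *Mrps18b* at 24.2 to 37.3 and 26.9 to 52.5 CPM (0.24 ± 0.18, SE) and *Mrps18a* at 33.2 to 58.4 and 31.7 to 52.5 CPM (-0.06 ± 0.21, SE, and 0.44 with library totals as the scale). *Mrps30*, also a large subunit protein despite its symbol, was at 20.1 to 29.1 and 16.3 to 28.2 CPM (-0.11 ± 0.18, SE, and 0.39 with library totals as the scale). *Mrps36*, which serves the 2-oxoglutarate dehydrogenase complex rather than the ribosome, was at 6.55 to 8.74 and 8.46 to 11.1 CPM and did not pass the test either (0.33 ± 0.14, SE, edgeR adjusted p = 0.0658). By the place of the protein in the ribosome, 17 of 46 genes at the place of a bacterial protein were upregulated (37%, median log2 fold change 0.35). Without LKO5, 14 of them were upregulated and 2 downregulated. Of the 30 genes at a place specific to mitochondria, with *Mrps18a* and *Mrps18b* counted here, 10 were upregulated (33.3%, median 0.24). Without LKO5, 9 of these were upregulated and 2 downregulated. Over all genes 25.6% were upregulated, and without LKO5 28.4% were upregulated and 27.2% downregulated.

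The lowest fold changes belonged to *Mrps25*, *Mrps26*, *Mrpl47* and *Mrps24*, and for them LKO5 decided the call. *Mrps25* was at 14.9 to 23.9 CPM in WT and at 15.1, 8.51, 10.7, 11.3 and 24.8 CPM in LKO1 to LKO5, so LKO5 was above every WT liver while 3 of the others were below all of them. *Mrpl47*, at 11.9 to 18.6 CPM in WT, was at 8.91, 8.60, 7.77, 9.89 and 19.2 CPM, so LKO1 to LKO4 were all below the WT livers and LKO5 above them. With LKO5 none of these genes passed the test (log2 fold changes of -0.45, -0.38, -0.36 and -0.32, edgeR adjusted p = 0.177, 0.183, 0.245 and 0.32). Without LKO5 all 4 were downregulated, *Mrps25* by -0.76 ± 0.19 (SE, edgeR adjusted p = 0.00498), *Mrpl47* by -0.68 ± 0.16 (0.00408), *Mrps26* by -0.59 ± 0.20 (0.0232) and *Mrps24* by -0.58 ± 0.21 (0.0332). With library totals as the scale and all livers, the same values were slightly above 0, from 0.01 for *Mrps25* to 0.15 for *Mrps24*. All 4 genes have exons that overlap another annotated gene, as 26 of the 76 annotated genes do. Of the upregulated genes, *Mrps21*, *Mrpl55*, *Mrpl52* and *Mrps17* lost their call without LKO5 (edgeR adjusted p = 0.0533, 0.0515, 0.0645 and 0.0555). The call of *Mrps17* was also lost when WT1, WT2, WT4, WT5, LKO1 or LKO4 was left out.

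**Figure D3:**
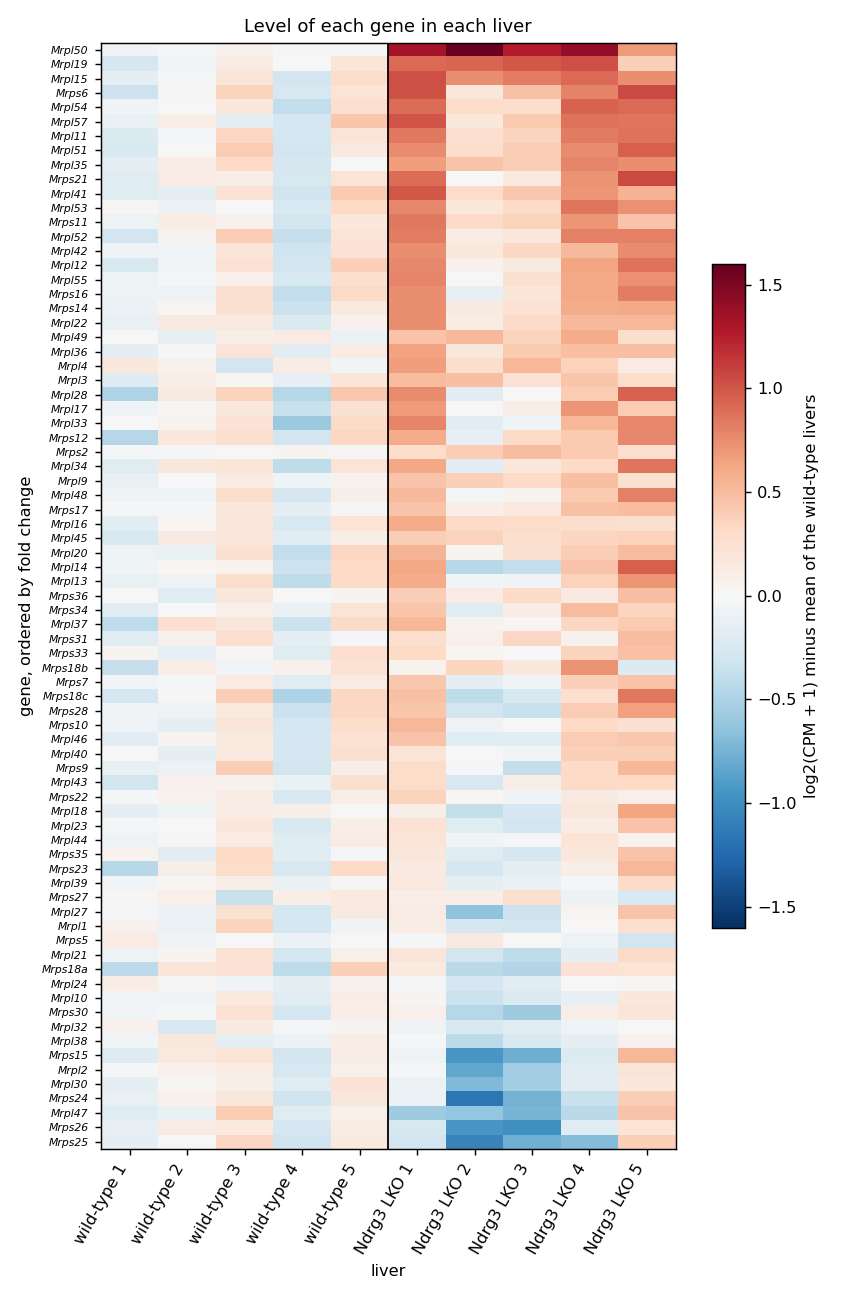
Level of each of the 77 genes in each liver, as log2(CPM + 1) minus the mean of the wild-type livers, ordered by fold change. Red is above and blue below the wild-type mean. LKO1, LKO4 and LKO5 are red over most of the list, LKO2 and LKO3 are pale in its middle and blue at its foot, and WT4 is pale blue over most of it.

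The livers of a group did not lie at 1 level, and the genes moved together from liver to liver. The summed level of the 77 genes was 2847, 3152, 3532, 2639 and 3584 CPM in WT1 to WT5 and 4455, 3155, 3335, 4185 and 4566 CPM in LKO1 to LKO5. On the TMM scale LKO2 and LKO3 were thus within the range of the WT livers and the other 3 Ndrg3 LKO livers above it. The lowest WT liver was WT1 or WT4 in 70 of the 77 genes (90.9%, against 43.6% of all genes), and the lowest Ndrg3 LKO liver was LKO2 or LKO3 in 66 (85.7%, against 43.6%). Of the 27 upregulated genes, 15 had groups that overlapped, and LKO2 was at or under the highest WT liver in 14 of them, LKO3 in 8, LKO5 in 1 and neither LKO1 nor LKO4 in any. By the median over the genes of log2(CPM + 1) relative to the WT mean, LKO2 and LKO3 were at -0.01 and 0.10, LKO1, LKO4 and LKO5 at 0.45, 0.38 and 0.46, and the WT livers between -0.26 and 0.17. On the TMM scale LKO5, which stood apart over all genes, thus lay among the high Ndrg3 LKO livers for this group of genes. The TMM factors were 0.805 to 0.917 in WT livers, 1.196 to 1.355 in LKO1 to LKO4 and 0.904 in LKO5. With library totals as the scale, which leaves these factors out, LKO5 had the lowest summed level of the Ndrg3 LKO livers. LKO2 and LKO3 were then above every WT liver by this sum.

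**Figure D4:**
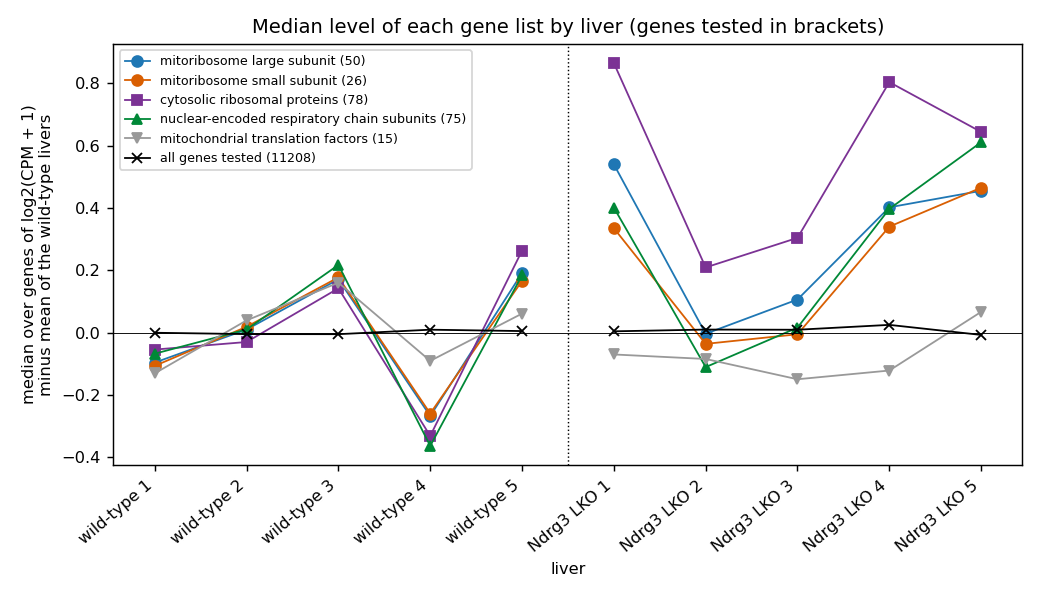
Median over the genes of each list of log2(CPM + 1), relative to the mean of the wild-type livers, in each of the 10 livers. Both subunits of the mitochondrial ribosome, the cytosolic ribosomal proteins and the respiratory chain subunits are lowest in WT4 and, among Ndrg3 LKO livers, in LKO2, while the median of all genes stays near 0.

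The order of the livers on the TMM scale went along with transcript length. The longest annotated coding transcript of the mitochondrial ribosomal protein genes had a median of 1213 bp, against 2990 bp over all genes tested, and 53 of the 76 genes with a length fell in the shortest of 5 length classes of 2072 genes each (54 to 1732 bp). This class had a median log2 fold change of 0.21 with 33.3% of its genes upregulated, and the class of the longest genes a median of -0.08 with 20.1%. Within the shortest class, 16 of the 53 mitochondrial ribosomal protein genes were upregulated, with a median of 0.25. Relative to the WT mean, the median of the shortest class was 0.37, 0.29 and 0.36 in LKO1, LKO4 and LKO5, -0.10 and 0.02 in LKO2 and LKO3, and lowest in WT4 at -0.21. With a correction for length in each liver, chosen after the data were seen, 23 of 76 genes (30.3%, beside 27.3% of all genes) were upregulated, 22 of them among the 27, and 5 (6.58%, beside 25.2%) were downregulated. These 5 were *Mrpl30*, *Mrps24*, *Mrpl27*, *Mrpl2* and *Mrps15*, and the median of the 76 fell to 0.18. The correction left *Mrpl30*, *Mrpl2* and *Mrps15* at -0.41, -0.40 and -0.43, whereas with library totals as the scale and no correction they were at 0.24, 0.24 and 0.23. *Mrpl50*, *Mrpl19* and *Mrpl15* were at 1.34, 0.91 and 0.85 with the correction, close to their values without it. In 7 of the 26 upregulated genes with a length the fold change was smaller by over 1.5 times, among them *Mrpl54* (from 0.70 to 0.43), *Mrps21* (from 0.62 to 0.27), *Mrpl53* (from 0.60 to 0.34) and *Mrpl52* (from 0.56 to 0.21). The calls of *Mrpl52*, *Mrpl22*, *Mrpl16* and *Mrpl4* were lost (edgeR adjusted p = 0.127, 0.0511, 0.0747 and 0.101).

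**Figure D5:**
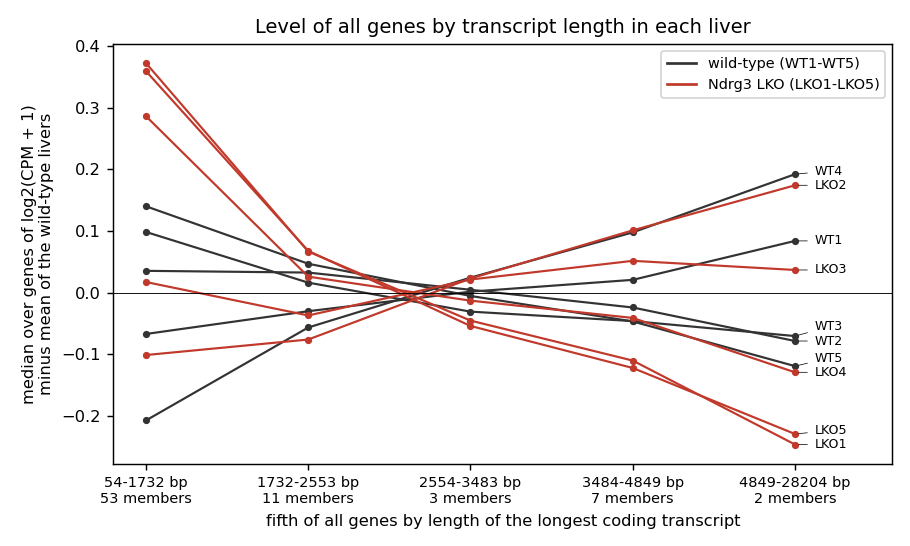
Median over genes of log2(CPM + 1), relative to the mean of the wild-type livers, for all genes in 5 classes of equal size by the length of their longest coding transcript, with 1 line per liver and the number of mitochondrial ribosomal protein genes in each class. The livers fan out at both ends, with LKO1, LKO5 and LKO4 highest and WT4 lowest for the shortest genes and the reverse for the longest.

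Further proteins of the mitochondrial ribosome carry other symbols, and all 6 in the table were tested. *Ict1*, a large subunit protein with peptidyl-tRNA hydrolase activity, rose from 33.9 ± 2.2 to 45.9 ± 7.2 CPM (SD, n = 5 in each group, edgeR adjusted p = 0.0131), and *Chchd1*, of the small subunit, from 26.9 ± 4.3 to 41.4 ± 9.8 CPM (SD, n = 5 in each group, edgeR adjusted p = 0.0117). *Ptcd3*, an RNA-binding protein of the small subunit, went the other way. It was at 30.5 to 36.4 CPM in WT and 21.8 to 26.6 CPM in Ndrg3 LKO livers, without overlap, with a log2 fold change of -0.47 ± 0.10 (SE, edgeR adjusted p = 0.00347) that was 0.06 with library totals as the scale. *Dap3*, a GTP-binding protein of the small subunit, did not pass the test with all livers (log2 fold change -0.46 ± 0.18, SE, edgeR adjusted p = 0.0528) and was downregulated without LKO5 (-0.61, edgeR adjusted p = 0.00699), and was at 0.03 with library totals as the scale. *Gadd45gip1* (0.31) and *Aurkaip1* (-0.01, or 0.48 with library totals as the scale) did not pass the test.

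Of 24 genes that assemble the mitochondrial ribosome or modify its rRNA, 6 were upregulated (25%, beside 25.6% of all genes) and 4 downregulated (16.7%, beside 23%), with a median log2 fold change of -0.03. With library totals as the scale 16 were upregulated and 1 downregulated, beside 51.9% and 9.01% of all genes, with a median of 0.51. *Rpusd4*, which makes a pseudouridine in the large rRNA, was at 4.15 to 6.68 CPM in WT and at 15.1, 16.8, 13.8, 16.6 and 9.19 CPM in LKO1 to LKO5 (log2 fold change 1.47 ± 0.20, SE, edgeR adjusted p = 1.52e-04). *Mettl17*, an assembly factor of the small subunit, rose by 0.79 and *Fastkd2*, which binds the large rRNA, by 0.77 on the log2 scale, both without overlap. *Tfb1m*, which dimethylates the small rRNA, was at 5.70 to 7.24 CPM in WT and 2.21 to 4.05 CPM in Ndrg3 LKO livers (-1.12 ± 0.19, SE, edgeR adjusted p = 7.69e-04, and -0.62 with library totals as the scale). *Mterfd1* and *Ftsj2* were downregulated by -0.56 and -0.59 but were at -0.07 and -0.08 with library totals as the scale, where neither passed the test (edgeR adjusted p = 0.744 and 0.754). With TMM scaling their calls were lost when WT2, WT3, WT5, LKO1, LKO2 or LKO3 was left out, and for *Mterfd1* also without LKO4.

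Of 15 mitochondrial translation factors, 3 were upregulated (20%, beside 25.6% of all genes) and 1 downregulated (6.67%, beside 23%), with a median log2 fold change of -0.03. Without LKO5 these numbers were 3 and 3, beside 28.4% and 27.2% of all genes. With library totals as the scale they were 9 and 0 (median 0.51), beside 51.9% and 9.01% of all genes. *Mtif2*, the initiation factor, was at 23.2 to 25.7 CPM in WT and 27.6 to 46.8 CPM in Ndrg3 LKO livers (log2 fold change 0.61 ± 0.14, SE, edgeR adjusted p = 0.00342). *Slirp*, which protects mitochondrial mRNAs, rose by 0.86, and *Guf1*, a GTPase of elongation, by 0.37, a call lost when WT1, WT2, WT4, LKO2 or LKO3 was left out. *Mrrf*, the ribosome recycling factor, was at 24.7 to 31.1 CPM in WT and 14.3 to 23.1 CPM in Ndrg3 LKO livers (-0.64 ± 0.14, SE, edgeR adjusted p = 0.00308, and -0.14 with library totals as the scale).

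Among 9 genes of mitochondrial DNA maintenance and transcription, *Polrmt*, the RNA polymerase that *Mrpl12* binds, was upregulated, from 23.7 ± 3.0 to 43.3 ± 12.7 CPM (SD, n = 5 in each group, log2 fold change 0.87), with LKO5 at 23.2 CPM, level with WT. *Polg*, the DNA polymerase, and *Tfb2m*, a transcription factor of mitochondria, were downregulated by -0.72 and -0.64 without overlap, and by -0.18 and -0.12 with library totals as the scale, where neither passed the test. Without LKO5, 1 gene of this list was upregulated and 4 were downregulated, beside 28.4% and 27.2% of all genes. Of 9 nuclear regulators of mitochondrial biogenesis, 4 were upregulated (44.4%, beside 25.6% of all genes) and 1 downregulated (11.1%, beside 23%). *Ppargc1a*, a coactivator that drives mitochondrial biogenesis, was at 9.72 to 14.0 CPM in WT and at 57.9, 139.6, 113.0, 52.0 and 41.3 CPM in LKO1 to LKO5 (log2 fold change 2.76 ± 0.33, SE, edgeR adjusted p = 7.0e-05). LKO2 and LKO3, the lowest Ndrg3 LKO livers for the mitochondrial ribosomal protein genes on the TMM scale, were the highest here. *Esrra*, a nuclear receptor that works with it, rose by 1.18 and *Pprc1*, a related coactivator, by 0.80, whereas *Gabpa*, the subunit of GABP that binds the ETS motif, was downregulated by -0.57, without overlap (edgeR adjusted p = 0.0115, and -0.03 with library totals as the scale). *Gabpb1*, its partner subunit, was upregulated by 0.68 (edgeR adjusted p = 0.0138), and by 0.81 without LKO5. Genes that mitochondrial DNA encodes were not analysed here.

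Among 11 genes of mitochondrial import and content, 7 were upregulated (63.6%, beside 25.6% of all genes) and none downregulated, with a median log2 fold change of 0.51. Without LKO5, 8 were upregulated, beside 28.4% of all genes, and with library totals as the scale all 11 (median 1.03), beside 51.9%. The 7 genes included *Tomm20*, a receptor of protein import (0.92), *Hspa9*, the matrix chaperone of import (0.88), and *Vdac3*, a channel of the outer membrane (0.62). Of 75 nuclear-encoded respiratory chain subunits, 17 were upregulated (22.7%, beside 25.6% of all genes) and 2 downregulated (2.67%, beside 23%), with a median of 0.29. Without LKO5 these numbers were 16 and 3, beside 28.4% and 27.2% of all genes. With library totals as the scale they were 65 and 0 (median 0.78), beside 51.9% and 9.01% of all genes. *Cox7a2* (1.15), *Uqcr10* (0.96) and *Atp5g1* (0.84) rose without overlap, and *Sdha* and *Atp5sl* were downregulated by -0.37 and -0.43, but were at 0.16 and 0.06 with library totals as the scale and each lost its call in 6 or 7 of the fits that left out 1 liver. Of 78 cytosolic ribosomal protein genes, 51 were upregulated (65.4%, beside 25.6% of all genes) and none downregulated (median 0.56). Without LKO5, 46 were upregulated, beside 28.4% of all genes. With library totals as the scale 76 were, beside 51.9% (median 1.07). With the correction for length 49 of 75 were upregulated, beside 27.3%, and none downregulated (median 0.44). Every Ndrg3 LKO liver was above every WT liver in 29 genes, beside 15.6% of all genes. The highest fold changes were those of *Rps12* (1.28), *Rps19* (1.21) and *Rpl13a* (1.196). All these comparisons used the same livers, so the lists are not independent of each other.

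Many mitochondrial ribosomal protein genes share their start region with another gene. Of the 76 annotated genes, 21 (27.6%) had a neighbour that starts on the other strand between 200 bp inside and 1000 bp away from their own start, against 11.2% of 10278 tested genes. Of the 20 such neighbours that were tested, 5 were upregulated and 2 downregulated, beside 25.6% and 23% of all genes. In 1 pair both genes rose, *Mrpl51* (log2 fold change 0.63) and *Ncapd2*, a condensin subunit (1.27), which start 206 bp apart. *Zfp189*, whose start is 83 bp from that of *Mrpl50*, was at 8.11 CPM in WT and 10.1 CPM in Ndrg3 LKO livers on average and did not pass the test (log2 fold change 0.32 ± 0.16, SE, edgeR adjusted p = 0.118). *Sars2*, the mitochondrial seryl-tRNA synthetase, whose start is 171 bp from that of *Mrps12*, was upregulated by 0.49 (edgeR adjusted p = 0.00937), while *Mrps12*, a protein of the decoding centre, did not pass the test (0.39, edgeR adjusted p = 0.122).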

How the data were processed

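Poly(A) RNA of 10 livers was sequenced with a stranded mRNA kit as paired-end reads. The authors aligned them to mm9, counted them per gene with STAR, and deposited these counts by gene symbol. The submitters' processing notes name STAR 2.7.3a, Trim Galore 0.6.4 and Cufflinks 2.2.1, whereas the study's methods name another version of STAR, and the annotation and strand setting are not given in the sources used here. The file names carry the word CPM, but the values are whole numbers with unequal totals and were used as counts. The members and gene lists were chosen with earlier results of these data known.

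Genes that reached 1 CPM in 5 or more livers entered the test in R 4.3.3 with edgeR 4.0.16 (TMM, quasi-likelihood test, Benjamini-Hochberg adjustment over all 11208 genes, threshold 0.05), with SE taken as the log2 fold change over the square root of F. Per-liver values are TMM-normalized CPM, and the pseudocount on the log2 scale was 1. The 20 pairs of livers within groups differed by more than sampling noise. Nothing says that livers of a group share a litter or cage, and 3 counts as the lowest level seen cover counting error only. On simulated counts with 200 of 11208 genes changed between the groups, edgeR recovered 154 with 9 false calls. These counts were drawn independently for each gene, with the means and spread of the WT livers. In the real livers genes moved together and LKO5 stood apart, so these numbers do not give the error rate of the real calls. Alternatives were library-size, median-of-ratios and quantile scaling (limma 3.58.1), DESeq2 1.42.0, limma, no filter, a mean CPM of at least 5, an absolute log2 fold change above 1, omission of single livers, a block on the replicate number, and, chosen after seeing the data, loess corrections (span 0.5) for transcript length and GC content. Both covered 10360 of the genes tested (92.4%).

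Positions come from GENCODE on NCBIM37, which is mm9, where 76 of 77 symbols were found. The genes named are, per subunit, the 4 strongest calls in each direction and the highest level per kilobase, *Mrps18a*, *Mrps18b*, *Mrps18c*, *Mrps30*, *Mrps36* and *Mrpl12*, up to 6 whose call changes without LKO5, the 3 strongest calls in each direction per companion list, and all proteins under other symbols. Other genes were named after their values were seen.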

Additional observations from a re-analysis of the deposited data

Results flagged for a closer look

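In 136 groups of 5 livers, each gene in each group, the highest or lowest liver was checked for a gap to the others. A gap this large for the range of the group arises by chance in about 1 of 20 groups. Such a gap was found in 3 groups, fewer than that rate would give. LKO5 was the liver apart in 2 of them. It was the lowest Ndrg3 LKO liver for *Mrpl19* at 17.0 CPM, with a gap of 0.76 of the range, and the highest for *Mrpl47* at 19.2 CPM, with a gap of 0.815. LKO1 was the highest Ndrg3 LKO liver for *Mrpl16* at 67.2 CPM, with a gap of 0.882. What set these livers apart was not tested.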

How the results depend on the processing

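The number of upregulated mitochondrial ribosomal protein genes was 27. It was 69 with library-size scaling, 16 with the replicate number as a block and 1 with an absolute log2 fold change above 1, and between 18 and 34 when single livers were left out. The median log2 fold change of these genes moved to 0.80 with library-size scaling and ranged from 0.23 to 0.36 with a liver left out. The number of genes called over the whole table, 5443, was 2301 with an absolute log2 fold change above 1 and 4703 to 6360 with a liver left out. The companion lists had 102 genes called, 190 with library-size scaling, 157 with quantile normalization, 9 with an absolute log2 fold change above 1, and 78 to 115 with a liver left out. *Ndrg3* stayed between -1.26 and -1.15 with a liver left out. Library-size scaling turned the direction of *Mrps30* (log2 fold change 0.39), *Mrpl27* (0.45), *Aurkaip1* (0.48), *Ptcd3* (0.058), *Sdha* (0.16) and *Atp5sl* (0.063), each called on one of these scales, and of 9 named genes called on neither, *Mrps18a*, *Mrps15*, *Mrps24*, *Mrps25*, *Mrps26*, *Mrpl2*, *Mrpl30*, *Mrpl47* and *Dap3*. Of 1317 values of the 66 named genes under the alternatives, 1176 kept their side of the threshold, 101 lost and 34 gained a call, and 6 reversed with a call. The cause was not tested, except that library-size scaling moves the median of all genes from 0.03 to 0.56 and that a fold limit can only remove calls.

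The livers of each group carry replicate numbers from 1 to 5. Livers of the same number did not deviate together, with correlations across genes of -0.357, -0.272, -0.313, -0.176 and 0.0363. Livers of different numbers were not compared, so this check cannot say whether the numbers mark pairs. With the number as a block, 16 of the 27 genes were called, and 4412 genes over the whole table. These 16, out of 77 tested, were all upregulated. Of all 11208 genes tested, 2215 were upregulated and 2197 downregulated in this fit. The upregulated share was thus close to that of all genes, whereas no mitochondrial ribosomal protein gene was downregulated. The lowest count of these genes in a liver was 113, with a counting error of 9.41% (Poisson), and their median log2 level had a pooled SD between livers of 0.202.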
